A study of Mus musculus with 10 samples.

Results

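Transcription regulators that are known for basal epithelial identity were followed across 5 sorted populations of mouse mammary cells. The genes were Trp63, Snai2, Id4, Tcf7l1, Bcl11b and Sox10, and a gene was used when it had probe sets annotated with its symbol alone. Of these 6 genes 5 were present, among 2560 named genes in all, and Tcf7l1 was not analysed here. The 5 genes had 10 probe sets between them, 3 for Trp63, 3 for Id4, 2 for Snai2 and 1 each for Bcl11b and Sox10. Total RNA was labelled from the 3′ end and hybridised to Affymetrix mouse arrays, 10 in all and 2 for each population. All cells came from mammary glands of virgin FVB females aged 6 to 8 weeks, and the labels give no treatment. Dissociated cells were depleted of CD45, CD31, Ter119 and CD140α positive cells per the labels and methods of the study, and the rest were sorted in 2 passes on CD24, CD49f and Thy-1. The basal populations were CD24medCD49fmed, Thy-1+CD24medCD49fhigh and Thy-1-CD24medCD49fhigh, with 6 arrays, and the luminal populations were CD24medCD49f-/low and CD24highCD49fmed, with 4 arrays. The text of the study names a CD24lowCD49fmed gate for myoepithelial cells where the labels have CD24medCD49fmed, and whether these are one gate is not stated. Whether the 2 arrays of 1 population stem from different mice is not given in the labels, and every p-value therefore covers the spread between arrays, which may be technical.

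The mammary epithelium has an outer basal layer, which contracts to eject milk and holds the cells that regenerate a gland on transplantation, and an inner luminal layer, which lines the ducts. Trp63 encodes p63, a factor of the p53 family that is required for the basal layer of stratified and glandular epithelia. Snai2 encodes Slug, a zinc finger repressor of epithelial adhesion genes that binds the E-box CAGGTG. Id4 encodes a helix-loop-helix protein without a DNA binding region, which pairs with E-box binding factors and keeps them from DNA. Bcl11b encodes a zinc finger factor known for commitment of T cells, and Sox10 an HMG box factor known from the neural crest, Schwann cells and melanocytes. Both are also known from basal or stem-like mammary cells.

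Promoter sequence was at hand for Id4 and Bcl11b, and the 250 bases before each annotated start are shown because both genes differed between basal and luminal cells. The sequences are from RefSeq, build GRCm38.p6, and read 5′ to 3′ on the strand of the gene. Id4 lies on the plus strand at chr13:48260866-48261115 and Bcl11b on the minus strand at chr12:108003415-108003664. Capitals mark ATTGG, the CCAAT box read on the other strand, in Id4, and CTTTGA, the core of a TCF site, in Bcl11b.
Id4: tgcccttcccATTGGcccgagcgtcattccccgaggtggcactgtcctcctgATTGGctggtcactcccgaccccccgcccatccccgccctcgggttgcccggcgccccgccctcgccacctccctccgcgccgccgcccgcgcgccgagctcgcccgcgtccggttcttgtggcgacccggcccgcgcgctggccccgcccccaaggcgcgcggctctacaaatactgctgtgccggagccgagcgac
Bcl11b: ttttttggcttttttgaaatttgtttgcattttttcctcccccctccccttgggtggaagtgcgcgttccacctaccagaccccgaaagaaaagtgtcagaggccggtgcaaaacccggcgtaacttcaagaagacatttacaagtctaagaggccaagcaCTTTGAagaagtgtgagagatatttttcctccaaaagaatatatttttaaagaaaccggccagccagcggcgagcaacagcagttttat

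Both promoters lacked the 6 letters CAGGTG, and lacked the general E-box CANNTG, of which CAGGTG is 1 form. Of 32851 mouse promoter windows of this length, 17.2% held CAGGTG and 66.2% held CANNTG on either strand. The SOX letters ACAAAG and ACAATG were also absent from both windows and were held by 16.5% and 10.7% of all windows. CTTTGA occurred once in Bcl11b, from 89 to 84 bases before the start, and in 13.8% of all windows. ATTGG, which was looked for after the sequences had been read, occurred 2 times in Id4 and in 33.8% of all windows. Id4 had 75.6% G and C in the window and Bcl11b 44.8%, against a median of 52.4% over all windows. A match of letters is a description of the sequence, and a missing match says only that these letters are not in the window.

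The values are log2 intensities centred on the mean of each probe set over the 10 arrays. They show differences between arrays and neither abundance nor signal over background, so no gene was set against another in level. In bulk samples such as these, fewer cells of a type and less RNA per cell cannot be told apart. CD24medCD49f-/low replicate 2 stood apart, with a correlation across features (genes, or probe sets without exactly 1 symbol) of 0.29 with its partner, against 0.76 between CD24medCD49f-/low replicate 1 and CD24highCD49fmed replicate 1. Thy-1+CD24medCD49fhigh replicate 2 had the smallest spread over probe sets, with an SD of 0.513 where the other arrays had 0.672 to 1.30. Of 11 structural markers of basal cells 11 were in the table and 11 were higher in basal cells, with a median log2 difference of 3.51. Of 11 luminal markers 8 were in the table and 4 were called lower in basal cells (Ehf, Epcam, Krt18 and Cldn3), with a median of -1.18, where 41.3% of all features were called lower, so this count is near that of the features at large.

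All 5 regulators were higher in basal than in luminal cells, and for each of them all 6 basal arrays lay above all 4 luminal arrays. The difference was largest for Id4, about as large for Trp63 and Snai2 as for each other, and smaller for Bcl11b and Sox10. Trp63 had centred log2 values of 1.47 and 1.34 in CD24medCD49fmed cells, 1.68 and 0.84 in Thy-1+CD24medCD49fhigh cells and 1.23 and 1.13 in Thy-1-CD24medCD49fhigh cells, against -1.55 and -1.37 in CD24medCD49f-/low cells and -2.51 and -2.26 in CD24highCD49fmed cells. Every basal array was therefore above the mean of the 10 arrays for this gene and every luminal array below it. Snai2 had 1.34 and 1.14 in CD24medCD49fmed, 1.52 and 0.80 in Thy-1+CD24medCD49fhigh and 1.18 and 1.38 in Thy-1-CD24medCD49fhigh cells, against -1.32 and -0.81 in CD24medCD49f-/low and -2.81 and -2.42 in CD24highCD49fmed cells. Id4 had 1.96 and 1.60 in CD24medCD49fmed, 1.78 and 1.17 in Thy-1+CD24medCD49fhigh and 1.67 and 1.78 in Thy-1-CD24medCD49fhigh cells, against -1.52 and -1.51 in CD24medCD49f-/low and -3.44 and -3.50 in CD24highCD49fmed cells. For Trp63, Snai2 and Id4 the arrays fell into 3 separate levels, basal, CD24medCD49f-/low and CD24highCD49fmed.

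Bcl11b had 0.94 and 0.38 in CD24medCD49fmed, 1.55 and 0.14 in Thy-1+CD24medCD49fhigh and 0.44 and 0.94 in Thy-1-CD24medCD49fhigh cells, against -0.55 and -1.23 in CD24medCD49f-/low and -1.23 and -1.38 in CD24highCD49fmed cells. Its arrays were wide apart within Thy-1+CD24medCD49fhigh cells, and the lower CD24medCD49f-/low array nearly met a CD24highCD49fmed array. Sox10 had 0.38 and 0.55 in CD24medCD49fmed, 0.97 and 0.12 in Thy-1+CD24medCD49fhigh and 0.25 and 0.16 in Thy-1-CD24medCD49fhigh cells, against -1.14 and -0.04 in CD24medCD49f-/low and -0.78 and -0.48 in CD24highCD49fmed cells. For Sox10 the CD24medCD49f-/low arrays enclosed both CD24highCD49fmed arrays, and the nearer of them lay just under the lowest basal array.

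**Figure D1:**
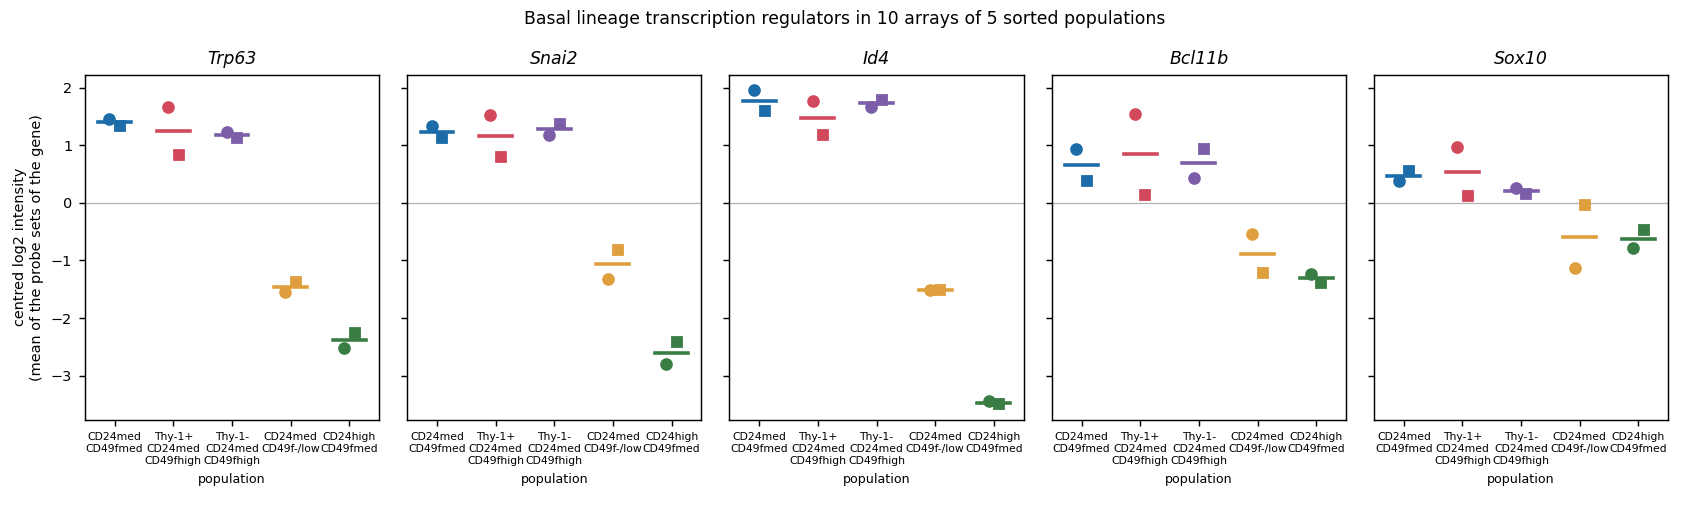
Centred log2 intensity (y axis, mean of the probe sets of a gene) of the 5 genes in the 10 arrays, by population (x axis). Circles and squares are the lower and the higher replicate number and bars are the means of 2 arrays. Basal arrays lie above 0 and luminal arrays below 0 for every gene, and Id4 reaches -3.50 in a CD24highCD49fmed array.

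The mean of the basal populations was set against the mean of the luminal populations to ask how these regulators follow the lineage split. In limma, fitted on all 2932 features with a Benjamini-Hochberg adjusted p under 0.05 as a call, 5 of 5 regulators were called higher in basal cells. Of all features, 34.7% were called higher, 41.3% lower and 76.0% in either direction, and 25.2% had every basal array above every luminal one. Id4 was higher by 4.15 ± 0.32 on the log2 scale (SE, 6 basal and 4 luminal arrays), or 17.8-fold with a 95% interval of 11.2 to 28.1 (limma adjusted p = 3.71e-09). It ranked 8 of 2932 features by the size of its moderated statistic. Trp63 was higher by 3.20 ± 0.32, or 9.22-fold (5.79 to 14.7, limma adjusted p = 8.83e-08), and Snai2 by 3.06 ± 0.33, or 8.36-fold (5.23 to 13.4, limma adjusted p = 1.81e-07). Bcl11b was higher by 1.83 ± 0.35, or 3.55-fold (2.13 to 5.92, limma adjusted p = 1.88e-04), and Sox10 by 1.01 ± 0.34, or 2.02-fold (1.24 to 3.30, limma adjusted p = 0.0116). Sox10 was not called without CD24highCD49fmed replicate 1 (0.94, limma adjusted p = 0.0619), and rank products, the test of the study, did not call Bcl11b (permutation p = 0.0489) or Sox10 (permutation p = 0.313) at its threshold of 0.01.

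The fold differed between probe sets of a gene, all of which were called higher in basal cells. In the fit of probe sets alone, 38.7% of 3663 were called higher. For Id4 the log2 difference was 5.26 in 1423259_at, 4.47 in 1450928_at and 2.73 in 1423260_at, and the first of these ranked 1 of 3663 by its moderated statistic. For Trp63 it was 4.23 in 1418158_at, 3.88 in 1452027_a_at and 1.51 in 1451876_a_at. For Snai2 it was 3.57 in 1447643_x_at and 2.55 in 1418673_at. The transcripts that each probe set detects were not examined here.

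Genes of other cell types were in part also higher in basal cells. The medians of 4 marker lists were lower in both Thy-1-CD24medCD49fhigh arrays than in the other basal arrays. There the array medians were -0.91 and -0.40 for epidermal keratinocyte markers, -0.0035 and -0.18 for pericyte markers, -0.15 and -0.13 for fibroblast markers and -0.03 and 0.12 for Schwann cell markers. Those of the regulators in the same arrays were 1.18 and 1.13, within the 0.80 to 1.55 of the other basal arrays. Single markers departed from the medians of their lists. Above 0 in both Thy-1-CD24medCD49fhigh arrays were the fibroblast markers Mmp2 (1.24 and 1.17) and Fbln1 (0.65 and 1.29). So were Lgals7 (0.43 and 1.00) of keratinocytes and Rgs5 (0.19 and 0.06) and Cspg4 (0.39 and 0.05) of pericytes. Schwann cell markers above 0 were Pmp22 (0.90 and 0.28), Ngfr (0.57 and 0.78) and Egr2 (0.90 and 0.55). The other markers of the 4 lists were not above 0 in both. Sox10 alone had 0.25 and 0.16 in these arrays. Its values were 0.38 and 0.55 in CD24medCD49fmed cells and 0.97 and 0.12 in Thy-1+CD24medCD49fhigh cells. The epidermal keratinocyte medians overlapped those of the luminal arrays. Of 10 fibroblast markers 6 were in the table and 6 were called higher in basal cells, where 34.7% of all features were. Their array medians were -0.15 to 1.77 in basal arrays and -1.46 to -0.79 in luminal arrays. Of 8 pericyte markers 6 were in the table, 5 had a positive difference and 4 were called higher in basal cells. Their array medians were -0.18 to 1.10 in basal arrays and -0.97 to -0.20 in luminal arrays. Of 9 epidermal keratinocyte markers 7 were in the table, 7 had a positive difference and 5 were called higher in basal cells. Their array medians were -0.91 to 2.30 in basal arrays and -1.32 to -0.58 in luminal arrays. For Sox10, 7 of 12 Schwann cell markers were in the table, with 6 called higher and 1 called lower (Erbb3) in basal cells. Array medians of these markers were -0.03 to 0.84 in basal arrays and -1.18 to -0.61 in luminal arrays. Myelin genes Pmp22 (3.20) and Mbp (2.94) had the largest differences among them. Of 7 melanocyte markers Kit alone was in the table and was lower in basal cells (-2.16). No T cell marker of 8 and no endothelial marker of 7 was in the table, and of 6 leukocyte markers Lcp1 alone was present and was lower in basal cells (-1.76). Beyond these values, the part of such cells in the differences of the regulators was not tested.

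The basal populations were also set against each luminal population in turn. Both comparisons use the same basal arrays. Against CD24medCD49f-/low cells 4 of 5 were called higher in basal cells, where 27.5% of all features were. The log2 difference was 3.18 ± 0.40 for Id4, 2.74 ± 0.41 for Trp63, 2.29 ± 0.41 for Snai2 and 1.62 ± 0.45 for Bcl11b (SE, 6 and 2 arrays). Sox10 differed by 1.00 ± 0.43 and was not called (limma adjusted p = 0.0631). It was called without CD24medCD49f-/low replicate 2 (1.54, limma adjusted p = 0.00853) and without Thy-1+CD24medCD49fhigh replicate 2 (1.14, limma adjusted p = 0.0405). Bcl11b was lost when arrays were weighted by their quality (limma adjusted p = 0.0725).

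Against CD24highCD49fmed cells 5 of 5 were called higher in basal cells, where 30.6% of all features were. Id4 was higher by 5.13 ± 0.40, which is 35.0-fold with an interval of 19.6 to 62.5, and had the fifth largest difference of all features. Snai2 was higher by 3.84 ± 0.41 (14.3-fold), Trp63 by 3.67 ± 0.41 (12.7-fold) and Bcl11b by 2.04 ± 0.45 (4.11-fold). Sox10 was higher by 1.03 ± 0.43 (limma adjusted p = 0.0359). The Sox10 call was lost without any 1 of 6 arrays. They were CD24highCD49fmed replicate 1 (0.88, adjusted p = 0.239) and replicate 2 (1.18, adjusted p = 0.108), CD24medCD49fmed replicate 2 (1.06, adjusted p = 0.0518) and replicate 3 (1.01, adjusted p = 0.0642), and in the CD24medCD49fhigh gate replicate 1 of the Thy-1+ cells (0.89, adjusted p = 0.0711) and replicate 1 of the Thy-1- cells (1.02, adjusted p = 0.0571).

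**Figure D2:**
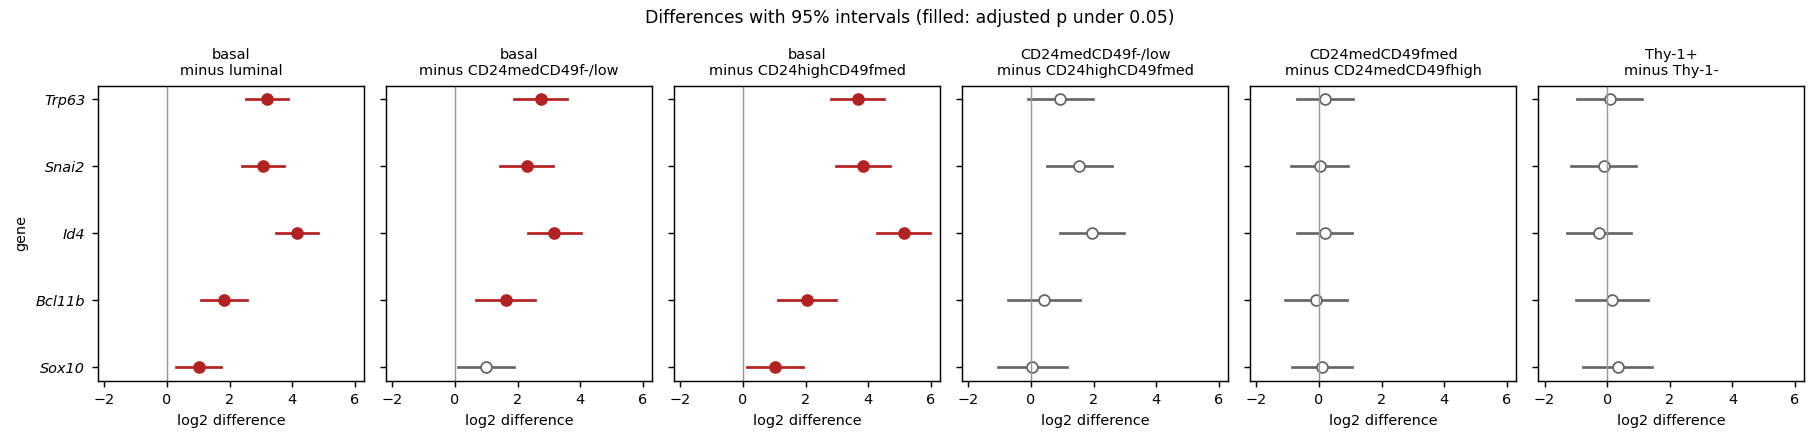
Log2 differences (x axis) of the 5 genes (y axis) in 6 comparisons, each the first population or mean minus the second, with 95% intervals. Filled points were called by limma at an adjusted p under 0.05, which holds for 14 of 15 differences from luminal cells and for none of the others.

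The luminal populations were then set against each other. Id4, Snai2, Trp63 and Bcl11b had both CD24medCD49f-/low arrays above both CD24highCD49fmed arrays, and Sox10 did not. No regulator was called at the level of the gene, where 0.136% of all features were called higher, 0.205% were called in either direction and 451 of 2932 had an unadjusted p under 0.05. Rank products called 2 regulators here, Id4 (permutation p = 9.00e-04) and Snai2 (permutation p = 0.00660). That test called 91 of all 2932 features. Arrays were apart in this direction for 14.2% of all features. The full order, with every basal array above both CD24medCD49f-/low arrays and these above both CD24highCD49fmed arrays, held for 4 of 5 regulators and for 314 of 2932 features (10.7%). Those 314 are among the 739 features that, like all 5 regulators, had every basal array above every luminal one. Trp63, Snai2 and Id4 are also in a gene list that the study drew for CD24medCD49f-/low cells from arrays of this strain, so their direction here is not independent evidence.

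Between CD24medCD49f-/low and CD24highCD49fmed cells Id4 differed by 1.95 ± 0.49 (SE, 2 arrays each), with a 95% interval of 0.93 to 2.98 and a limma adjusted p of 0.0876. Snai2 differed by 1.55 ± 0.50 (0.50 to 2.60, limma adjusted p = 0.167) and Trp63 by 0.93 ± 0.50 (-0.11 to 1.97, limma adjusted p = 0.364). Bcl11b differed by 0.42 ± 0.55 (-0.72 to 1.56, limma adjusted p = 0.712) and Sox10 by 0.04 ± 0.53 (-1.06 to 1.13, limma adjusted p = 0.975). With any 1 array left out, Id4 differed by 1.93 to 1.98, Snai2 by 1.29 to 1.80 and Trp63 by 0.80 to 1.05. With array medians set to 0, Id4 was called at 2.43 (limma adjusted p = 0.0171), where 20 of 2932 features were called. The median of all features in this comparison was -0.35 and moved to 0.14 when each array was centred on its median and to 0.02 under quantile normalisation. Relative to that median Id4 differed by 2.30 as deposited and by 1.23 after quantile normalisation, Snai2 by 1.89 and 1.11, and Trp63 by 1.27 and 0.57.

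In terms of intensity, Id4 stood at 11.1% of the basal mean in CD24medCD49f-/low cells and at 2.86% in CD24highCD49fmed cells. Snai2 stood at 20.4% in CD24medCD49f-/low and 7.0% in CD24highCD49fmed cells, and Trp63 at 15.0% in CD24medCD49f-/low and 7.86% in CD24highCD49fmed cells. Bcl11b stood at 32.6% in CD24medCD49f-/low and 24.3% in CD24highCD49fmed cells, and Sox10 at 50.1% in CD24medCD49f-/low and 48.9% in CD24highCD49fmed cells. As a share of the log2 distance between basal and CD24highCD49fmed cells, the step between the luminal populations was 40.3% for Snai2, 38.1% for Id4, 25.3% for Trp63, 20.6% for Bcl11b and 3.60% for Sox10. The 898 features called higher in basal than in CD24highCD49fmed cells had a median share of 17.6%, with quartiles of 0.507% and 32.3%. Snai2, Id4 and Trp63 were above that median, and stayed above the median of the same features when any 1 of the 4 luminal arrays was left out, with shares of 33.7% to 46.9% for Snai2, 37.8% to 38.4% for Id4 and 22.6% to 27.8% for Trp63. Snai2 and Id4 also passed the upper quartile, other than without CD24medCD49f-/low replicate 1, when it was 51.2%. The shares of Bcl11b and Sox10 rested on single arrays and have no settled place. That of Bcl11b was 3.99% without CD24medCD49f-/low replicate 1 and 37.3% without replicate 2. That of Sox10 was 56.6% without CD24medCD49f-/low replicate 1, -49.4% without its replicate 2, -12.9% without CD24highCD49fmed replicate 1 and 15.9% without its replicate 2. As intensity, the CD24medCD49f-/low arrays stood at 41.2% and 25.8% of the basal mean for Bcl11b and at 34.3% and 73.3% for Sox10.

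Both CD24medCD49f-/low arrays were above both CD24highCD49fmed arrays in all 8 probe sets of Id4, Snai2 and Trp63, and the size of the step varied between them. For Id4, 1423260_at had -0.37 and 0.06 in CD24medCD49f-/low cells and -3.09 and -3.15 in CD24highCD49fmed cells. Its difference of 2.97 ± 0.49 was called (limma adjusted p = 0.0151) and ranked 1 of 3663, where 0.218% of probe sets were called higher in this comparison. It stood at 42.2% of the basal mean in CD24medCD49f-/low cells and at 5.40% in CD24highCD49fmed cells. The other Id4 probe sets differed by 1.5 ± 0.51 (1423259_at, limma adjusted p = 0.188) and 1.39 ± 0.51 (1450928_at, limma adjusted p = 0.217) and stood at 4.40% and 7.29% of the basal mean in CD24medCD49f-/low cells. Of the Snai2 probe sets, 1447643_x_at differed by 2.29 ± 0.51 (limma adjusted p = 0.0539) and 1418673_at by 0.81 ± 0.51. Of the Trp63 probe sets, 1452027_a_at differed by 1.69 ± 0.51 (limma adjusted p = 0.127), 1418158_at by 0.64 ± 0.52 and 1451876_a_at by 0.46 ± 0.51. In each of these 3 genes 1 probe set had a wider gap than the others, and the differences between probe sets were not tested.

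**Figure D3:**
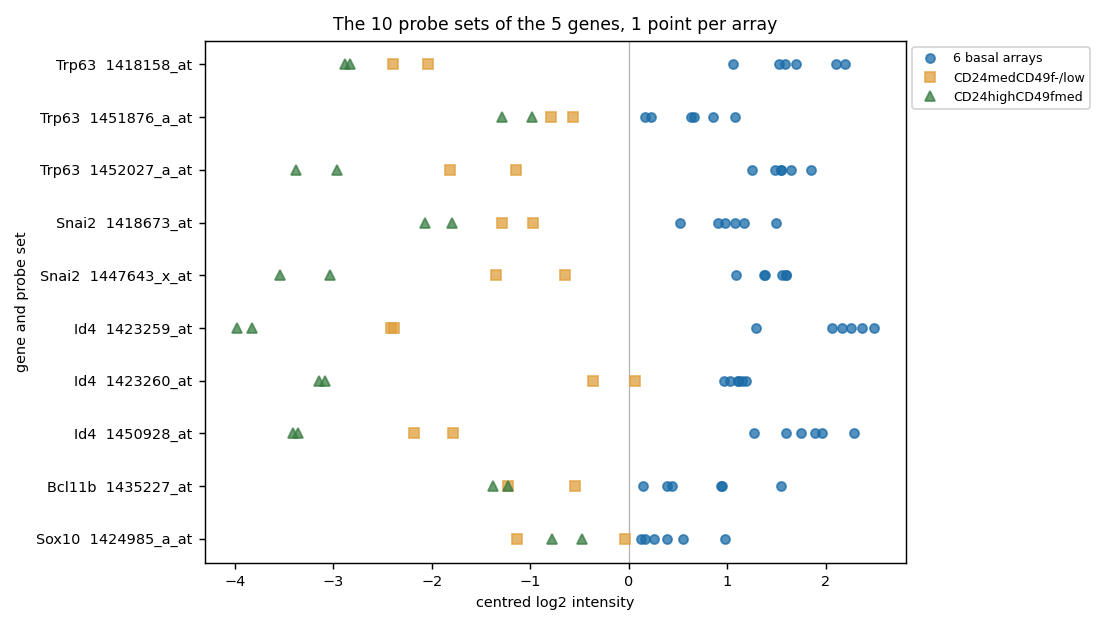
Centred log2 intensity (x axis) of the 10 probe sets (y axis), with 6 basal arrays as circles, 2 CD24medCD49f-/low arrays as squares and 2 CD24highCD49fmed arrays as triangles. The CD24medCD49f-/low arrays of Id4 1423260_at, at -0.37 and 0.06, lie nearer the basal arrays than those of the other Id4 probe sets.

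The structural genes of basal cells showed a step in the same direction. Of 11 structural markers 11 had a positive difference between CD24medCD49f-/low and CD24highCD49fmed cells, with a median of 1.42 and a range of 0.47 to 2.95, and 1 was called higher, the myosin light chain Myl9 (2.95, limma adjusted p = 0.0179). Krt5 (1.86), Krt17 (1.81) and the kinase Mylk (1.58) were not called. The array medians of the list were -1.48 and -1.29 in CD24medCD49f-/low cells and -3.07 and -2.81 in CD24highCD49fmed cells. In CD24medCD49f-/low cells Krt5, a basal keratin, stood at 11.5% of its basal mean, Krt14 at 6.29%, Myl9 at 27.2% and Tagln, a smooth muscle protein, at 8.30%. The 5 regulators had a median gap of 0.93, and 8 luminal markers one of -0.06, where that of all features was -0.35. The 898 features called higher in basal than in CD24highCD49fmed cells had a median gap of 0.37. The part of basal cells in the luminal gates in these values was not tested.

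**Figure D4:**
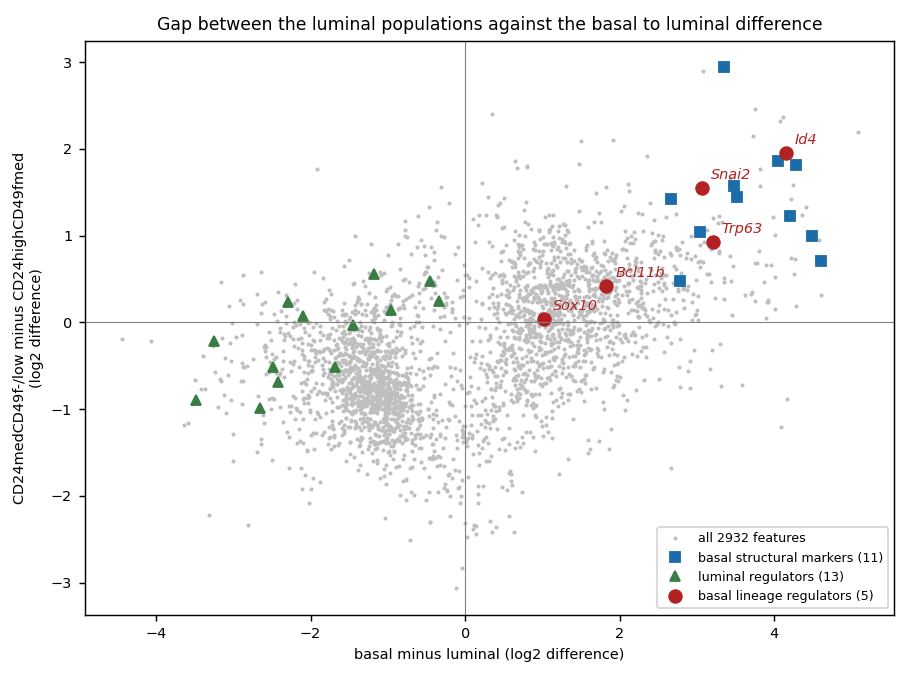
Difference between CD24medCD49f-/low and CD24highCD49fmed cells (y axis, log2) against the difference between basal and luminal cells (x axis, log2) for 2932 features in grey. Circles are the 5 regulators, squares 11 basal structural markers and triangles 13 luminal regulators. Id4 (4.15 and 1.95) lies among the squares and Sox10 (1.01 and 0.04) near the y value of 0.

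Among the basal populations none of the 5 regulators was called, where 0.0341% of features were called in CD24medCD49fmed against CD24medCD49fhigh cells and 0.0682% in Thy-1+ against Thy-1- cells (limma). At an unadjusted p under 0.05 there were 52 and 74 features, and neither set held a regulator. CD24medCD49fmed minus the mean of both CD24medCD49fhigh populations was 0.19 for Trp63, 0.02 for Snai2, 0.18 for Id4, -0.10 for Bcl11b and 0.09 for Sox10. Thy-1+CD24medCD49fhigh minus Thy-1-CD24medCD49fhigh was 0.08 for Trp63, -0.11 for Snai2, -0.25 for Id4, 0.15 for Bcl11b and 0.34 for Sox10. The 95% interval of the Trp63 difference by Thy-1 was -0.96 to 1.12, and that of Id4 -1.28 to 0.77. Differences of up to about that size cannot be told from 0 with 2 arrays each.

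The widest spread between basal arrays was within Thy-1+CD24medCD49fhigh cells. Replicate 2 of that population was the lowest of the 6 basal arrays for 5 of 5 regulators. It also had the smallest spread over probe sets of all arrays, with an SD of 0.513. The share of all features that were lowest in it was not counted. The median of 8 luminal markers in Thy-1+CD24medCD49fhigh replicate 2 was 0.85, against -1.87 to 0.29 in the other basal arrays. In luminal arrays that median was -0.16 to 1.73, and the part of luminal cells in the basal arrays was not tested. Replicate 1 of the Thy-1+CD24medCD49fhigh cells was the highest for all but Id4, which was highest in CD24medCD49fmed replicate 2. The range over basal arrays was 0.83 for Trp63, 0.72 for Snai2, 0.78 for Id4, 1.41 for Bcl11b and 0.85 for Sox10. By mean, CD24medCD49fmed was first for Trp63 and Id4, Thy-1-CD24medCD49fhigh for Snai2 and Thy-1+CD24medCD49fhigh for Bcl11b and Sox10. Neighbouring basal populations overlapped for every gene, other than CD24medCD49fmed and Thy-1-CD24medCD49fhigh for Sox10.

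Relatives of these factors were few in the table, with 2 of 13. Sox8, a close relative of Sox10, was higher in basal than in luminal cells by 2.20 and was called, and differed by 0.66 between CD24medCD49f-/low and CD24highCD49fmed cells. Id2, a relative of Id4, differed by -0.33 between basal and luminal cells and was not called. The 2 luminal populations went opposite ways for Id2. Basal minus CD24highCD49fmed cells was -1.16 and was called, and basal minus CD24medCD49f-/low cells was 0.49. Its gap between CD24medCD49f-/low and CD24highCD49fmed cells was -1.65 (limma adjusted p = 0.167), opposite in sign to that of Id4, and neither was called. In CD24medCD49f-/low cells Id2 stood at 71.1% of its basal mean and in CD24highCD49fmed cells at 222.9%.

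Other regulators that basal or mesenchymal cells use were mostly higher in basal cells. Their step between CD24medCD49f-/low and CD24highCD49fmed cells had a median of -0.0031 with 0 called, where that of all features was -0.35. That median was 0.37 over the 898 features called higher in basal than in CD24highCD49fmed cells. Of 25 such regulators 12 were in the table, with 11 called higher, 1 called lower (Foxc1, -1.81) and a median of 1.78. Of all features 34.7% were called higher and 41.3% lower in basal cells. The early response factors Egr3 (2.66) and Egr2 (1.88) and the factors Zeb2 (1.97) and Mef2c (1.94) were among the higher. Egr3 was at 8.85% of its basal mean in CD24medCD49f-/low and 28.3% in CD24highCD49fmed cells, a gap of -1.68 that was not called (limma adjusted p = 0.170). Of 20 luminal regulators 13 were in the table, with 0 called higher and 10 lower in basal cells and a median of -2.10. They included Tox3 (-3.48), the ETS factors Ehf (-2.66) and Elf5 (-2.42), and Pgr, the progesterone receptor (-2.29). Their gap between the luminal populations had a median of -0.03 with 0 called.

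As given above, 34.7% of all features were called higher in basal cells. Of 20 epithelial genes known as p63 targets 12 were in the table and 12 were called higher in basal cells, with a median of 2.03. Krt14 (4.49) and Krt5 (4.05), keratins of the basal layer, Col17a1 (3.80), a collagen of hemidesmosomes, and Jag2 (2.65), a Notch ligand, led them. Their luminal gap had a median of 0.38 with 0 called, against 0.93 for Trp63. That median was 0.37 over the 898 features called higher in basal than in CD24highCD49fmed cells. Of 15 targets or modulators of Wnt signalling 7 were in the table and 7 were called higher in basal cells, with a median of 1.77. Wif1 (4.59) and Dkk3 (2.53), which encode secreted proteins, Nkd2 (2.09) and Sfrp1 (1.77) led them, and their luminal gap had a median of 0.51 with 0 called. Krt5 and Krt14 are also in the list of structural markers.

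The genes most like each regulator were found by Pearson correlation over the 10 arrays, which share the basal and luminal split, and are given as a description. Trp63 was most like Col17a1 (r = 0.998), Tagln (0.997) and Fstl1 (0.997). Snai2 was most like Ism1 (0.994), Sparc (0.993) and Fstl1 (0.992), and Ism1 and Sparc were called higher in CD24medCD49f-/low than in CD24highCD49fmed cells (2.46 and 2.36, both limma adjusted p = 0.0458). Id4 was most like Adamts1 (0.997), Pdpn (0.997) and Adamts4 (0.996). Bcl11b was most like Maob (0.987), Cyp7b1 (0.985) and Arhgap24 (0.984), and Sox10 most like Anxa6 (0.989), Klhl21 (0.986) and Dnajc18 (0.985). The mean of the 5 regulators was most like Zfp365, Gpr153, Fstl1, Apobec1 and Selenom. Among themselves the regulators had r of 0.78 (Bcl11b and Sox10) to 0.99 (Snai2 and Id4) over 10 arrays. Over the 6 basal arrays alone r was 0.37 (Id4 and Sox10) to 0.93 (Snai2 and Bcl11b), where Thy-1+CD24medCD49fhigh replicate 2 was low for all of them.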

How the data were processed

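The table holds log2 intensities of probe sets, which the authors normalised over all arrays and centred on the mean of each probe set, so that the largest absolute mean was 3.0e-07. The methods name RMA and the labels RMA and GCRMA, with no version. Per the methods, probe sets were dropped by a minimum level and by a range under 4-fold between arrays, and the smallest range left was 2.00 on the log2 scale.

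Of 3663 probe sets, 3291 had 1 gene symbol in the platform annotation, 75 had several and 297 were not listed there. Values were averaged per gene, and other probe sets were kept alone, which gave 2932 features. limma 3.58.1 in R 4.3.3 (lmFit, eBayes) was fitted on all 10 arrays with a mean per population, 5 residual and 16.5 prior degrees of freedom. Tests were two-sided with Benjamini-Hochberg adjustment over all features of a comparison, and the fit was tested on simulated data. Precision is limited by having 2 arrays per population. Intensity as a percent of the basal mean is 2 to the power of the log2 difference.

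The alternatives were quantile normalisation, array medians set to 0, array weights, robust moderation of the variances, the replicate number as a block, only the arrays compared, probe sets alone, each array left out and rank products with 100 permutations (for basal against luminal cells and for the luminal populations). The genes named were the regulators, the 3 genes most like each and the 5 most like their mean, all measured relatives, and up to 4 genes of each list by the size of the moderated statistic in each of 2 comparisons. The regulators and the lists were chosen with earlier results of these data known, so no list was tested. Promoter windows came from RefSeq tables, which held 2 of the 5 genes.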

Additional observations from a re-analysis of the deposited data

How the results depend on the processing

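Of 515 alternatives for single regulators, 472 kept the direction and the side of the threshold, 8 became called, 11 lost the call and 24 changed sign, the last all in differences that were not called. In basal against luminal cells rank products called 3 of the 5 regulators, and leaving out single arrays gave 4 to 5. Between CD24medCD49f-/low and CD24highCD49fmed cells, where limma called 0 regulators, array medians set to 0 gave 1 (Id4), rank products 2, and single arrays left out 0 to 2. Features called in that comparison numbered 6 in all, 20 with array medians set to 0, 91 by rank products, 33 with the replicate block and 0 with quantile normalisation, array weights or only the arrays compared. They numbered 295 without CD24medCD49f-/low replicate 1, 118 without replicate 2 and 0 to 4 without any other array. Without 1 array the Sox10 difference there ran from -0.51 to 0.58. Rank products called 437 features in basal against luminal cells, against 2227 by limma. In basal against CD24highCD49fmed cells 1138 features were called without CD24highCD49fmed replicate 1, against 2189. Among basal populations the counts ran from 0 to 19 for CD24medCD49fmed against CD24medCD49fhigh cells, against 1, and from 0 to 13 for Thy-1+ against Thy-1- cells, against 2. With array weights 513 features were called in basal against CD24medCD49f-/low cells, against 1342. Among the 5 genes most like the regulators, 4 remained with array medians set to 0 and 0 with Spearman correlation. The causes were not tested.

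CD24medCD49fmed minus CD24medCD49fhigh gave -0.033 for Snai2 with array medians set to 0 and -0.12 with quantile normalisation. Single arrays left out gave -0.023 to 0.39 for Trp63, -0.16 to 0.20 for Snai2, -0.0028 to 0.36 for Id4, -0.46 to 0.25 for Bcl11b and -0.12 to 0.30 for Sox10. Thy-1+ minus Thy-1- gave -0.090 for Trp63 and -0.011 for Bcl11b with array medians set to 0, and -0.073 for Bcl11b with quantile normalisation. Single arrays left out gave -0.34 to 0.49 for Trp63, -0.47 to 0.24 for Snai2, -0.55 to 0.048 for Id4, -0.55 to 0.86 for Bcl11b and -0.089 to 0.76 for Sox10. Where an arm was left with 1 array, it was taken to vary like the others.

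The labels number the replicates 1 and 2, or 2 and 3 in CD24medCD49fmed. Deviations of same-numbered arrays correlated between -0.20 and 0.52 over 6 pairs of populations. The correlation was 0.52 between the luminal populations and 0.30 between Thy-1+ and Thy-1- CD24medCD49fhigh cells. It was -0.20 to 0.08 between a CD24medCD49fhigh and a luminal population. Whether same-numbered arrays share more than a number cannot be settled by this check. With the replicate block CD24medCD49fmed rested on its replicate 2, and its difference from CD24medCD49fhigh cells was 0.39 for Bcl11b and -0.048 for Sox10. Sox10 in basal against CD24highCD49fmed cells was 0.99 with the block (limma adjusted p = 0.0720), no longer called, and no other regulator call changed.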
